A study of Mus musculus with 141 samples.

Results

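Inguinal fat libraries with a large share of mitochondrially encoded RNA were compared with libraries with a small share. The share of a library was the sum of the counts of its 13 listed mitochondrially encoded genes (symbols starting with mt-) divided by its total count. Libraries were ranked by this share within females and within males, and the 1 in 4 libraries with the largest share in each sex were set against the 1 in 4 with the smallest. This placed 34 libraries in the high-share group (16 females and 18 males) and 34 in the low-share group (16 females and 18 males). The other 70 ranked libraries (33 females and 37 males) formed the middle, and the 3 remaining libraries of the series were left out. The 3 carry mouse numbers 443, 886 and 1269, and their Y-linked genes went against the sex in the label. Counts-per-million (CPM) of nuclear counts, here without further scaling, summed over Ddx3y, Eif2s3y, Kdm5d and Uty to 1133 and 391 CPM in those labelled female and to 10.7 in the one labelled male, against 6.06 to 38.1 in the females used and 184.9 to 617 in the males used. Libraries were chosen by the measured share, so the shares and mt- counts of the groups are given as a description without a test. The tests concern nuclear genes and, once, the share of the other-sex library of a strain, which did not place the library it is compared with.

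The series is RNA sequencing of subcutaneous (inguinal) white adipose tissue from the Hybrid Mouse Diversity Panel, a collection of classical inbred mouse strains and recombinant inbred strains of the AXB/BXA, BXD, BXH and CXB families. The label of a BXD line, BXD24/TyJ-Cep290<rd16>/J, names the rd16 mutation of Cep290. Its female was in the low-share group and its male in the middle. Mice of both sexes were fed chow until 8 weeks of age, then a high-fat, high-sucrose diet for 8 weeks, and were fasted for 4 hours before the tissue was taken, so every library in both groups carries the same diet. A strain of the 82 was represented by at most 1 mouse of each sex, and no strain had replicates within a sex. Within a sex the spread of a group is that between mice of different strains, while with both sexes joined some strains entered a group with 2 mice, which the main test took as independent.

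Mitochondrial DNA is a small circular genome, present in many copies in a cell, that encodes proteins of respiratory complexes I, III and IV and of the ATP synthase, complex V. Every other subunit of the oxidative phosphorylation (OXPHOS) system, all of complex II, and the proteins that copy, transcribe and translate mitochondrial DNA are encoded in the nucleus and imported. White adipocytes hold few mitochondria around a large lipid droplet, while the beige adipocytes that appear within the inguinal depot hold many and can express the uncoupling protein Ucp1, which releases the proton gradient as heat.

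In females, the share was lowest at 3.99% and highest at 7.09% in the low-share group (median 6.42%), and ran from 11.6% to 25.8% in the high-share group (median 13.6%). The male groups ran from 4.44% to 7.41% (median 6.47%) and from 10.9% to 25.1% (median 12.5%). The middle libraries filled the gap, from 7.32% to 11.3% in females and from 7.49% to 10.5% in males. At the edges of the female groups, NZB/BlNJ was the last low-share library at 7.09% and BTBR T<+> tf/J the first outside at 7.32%, while BXD87/RwwJ was the last high-share library at 11.6% and DBA/2J the first outside at 11.3%. At the male edges, BXA7/PgnJ at 7.41% was in and BXD19/TyJ at 7.49% out of the low-share group, and BXD64/RwwJ at 10.9% was in and BXD48/RwwJ at 10.5% out of the high-share group. The neighbours at each edge therefore differed by far less than the groups. The largest shares were those of the BXD14/TyJ female and the CXB11/HiAJ male, and the smallest those of the AXB12/PgnJ female and the BXA24/PgnJ male. Each of the 13 mt- genes had a higher median in the high-share group, with ratios of group medians from 1.71 to 2.48 in females and from 1.44 to 2.20 in males.

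**Figure D1:**
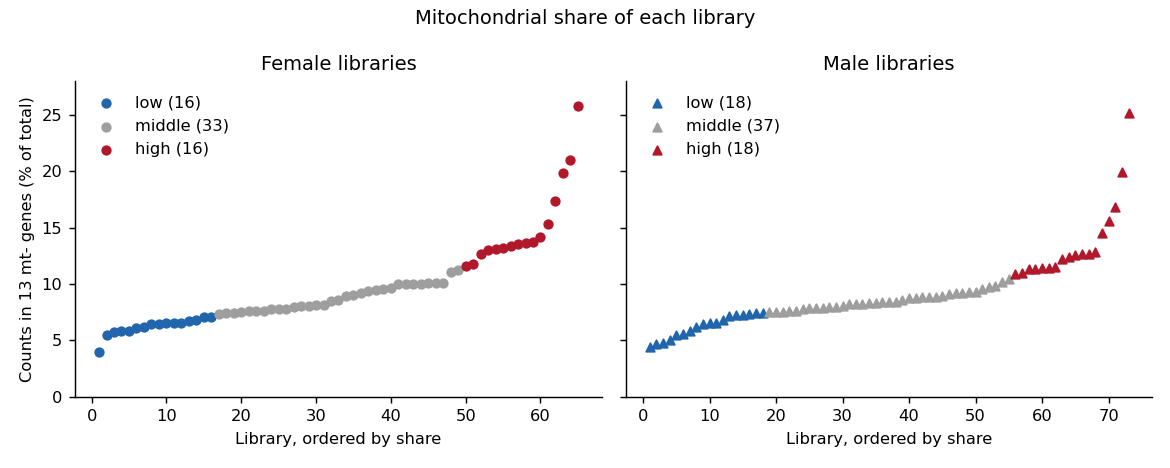
Share of counts from the 13 mt- genes (percent of a library's total) for each ranked library, in rank order within each sex, with the low-share libraries in blue, the middle in grey and the high-share libraries in red. The female groups end at 7.09% and start at 11.6%, the male groups at 7.41% and 10.9%. The BXD14/TyJ female at 25.8% and the CXB11/HiAJ male at 25.1% stand away from the rest of the high-share group.

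The contrast covered 53 strains, 28 with a high-share and 29 with a low-share library. Both sexes of 6 strains were in the high-share group and both of 5 strains in the low-share group, whereas C57BLKS/J, MA/MyJ, A/J and NZB/BlNJ had 1 sex in each. By family, high-share and low-share libraries numbered 15 and 13 for BXD, 5 and 8 for AXB/BXA, 10 and 9 for classical inbred strains, 0 and 4 for BXH, and 4 and 0 for CXB. Library totals ran from 11747373 to 78562648 estimated counts, with medians of 30393420 in the high-share and 30712710 in the low-share group. The adipocyte markers were expressed in every group: the summed level of the 14 listed genes had medians of 34822 and 43539 CPM in low-share and high-share females and 47440.0 and 62243 CPM in males, where CPM stands for counts-per-million of nuclear counts after TMM scaling.

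Some libraries stood apart. The 12 skeletal muscle genes summed to 31101 CPM in the high-share BXD79/RwwJ female, 4195 CPM in the low-share BXA7/PgnJ male and 4069 CPM in the low-share BXH8/TyJ male, against a median of 12 CPM in high-share females and 33.5 CPM in low-share males. Liver genes summed to 2782 CPM in the high-share AXB5/PgnJ male and 3218 CPM in the low-share MA/MyJ male. The low-share AXB12/PgnJ female had the highest macrophage sum, 4546 CPM, and an Adipoq level of 316 CPM. Counts led by these libraries are given below also without them.

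Among 17516 nuclear genes tested, 2978 (17%) were higher and 2899 (16.6%) lower in high-share than in low-share libraries at an adjusted p under 0.05 by edgeR's quasi-likelihood test, with a term for sex and p-values adjusted by the Benjamini-Hochberg method. The median log2 fold change of all genes was -0.03. The balance between directions differed with the scaling, as 50.7% of the called genes were higher with TMM scaling and 35.8% with plain nuclear totals. With limma on log2(TPM + 1), where the test, the length correction and the scaling all differ, 17.9% were higher and the median gene lay at -0.13. No gene had groups that failed to overlap in both sexes at once, in either direction (0.0%). Within females the groups did not overlap for 62 genes, all higher (0.354% of genes tested), and 12 of them were OXPHOS subunits, 8 belonged to the citrate cycle list and 4 to the fatty acid oxidation list. Within males this held for 1 gene, Mrps36, named as a protein of the mitochondrial ribosome and also known from the oxoglutarate dehydrogenase complex, also higher (0.00571%), and for no gene was the high-share group wholly below the low-share group in either sex (0.0%). The 62 female genes include Gm13341 and Gm29216, nuclear copies of mitochondrial DNA that share sequence with the mt- genes that formed the groups.

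Nuclear OXPHOS subunits were higher almost throughout. Of 83 tested, 79 rose and none fell, with a median log2 fold change of 0.70 beside -0.03 for all genes. All 36 complex I subunits rose (median 0.69), as did all 4 of complex II (0.83) and all 9 of complex III (0.86). Complex IV had 14 of 17 higher (0.70) and complex V 16 of 17 (0.58). The members that did not pass were Atp5g1 at -0.04 and the complex IV subunits Cox4i2 at -0.03, Cox6a2 at 0.23 and Cox6b2 at 0.27. Complex II has no mitochondrially encoded subunit, and its median change was close to that of complex III, which has 1 in mt-Cytb.

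Sdhb, the iron-sulfur subunit of complex II, had the smallest p-value among the genes tested. In females it ranged from 73.3 to 109.6 CPM (median 95.5) in low-share libraries and from 147.5 to 430.4 CPM (median 210.2) in high-share libraries. In males the ranges were 81.8 to 142.97 CPM (median 108.1) and 127.8 to 342 CPM (median 177.2). The female groups did not overlap and the male groups overlapped slightly, at a log2 fold change of 1.02 ± 0.08 (SE, edgeR adjusted p = 6.8e-15). Uqcrc2, a core subunit of complex III, differed by 0.97 ± 0.08 (edgeR adjusted p = 6.8e-15), with medians of 153.3 and 295 CPM in females and 174.2 and 269.8 CPM in males. Ndufs1, the largest subunit of complex I, had female medians of 131.98 and 229.8 CPM and male medians of 145.97 and 231 CPM, and rose by 0.79 on the log2 scale. Cox4i1, the ubiquitous form of a complex IV subunit, rose by 0.72, and Atp5a1 and Atp5b, the catalytic-head subunits of ATP synthase, by 0.68 and 0.79. The isoforms Cox7a1 (2.76) and Cox8b (2.20), which are abundant in brown fat and muscle, rose more than their family.

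Promoter sequences were set beside these genes because the members moved together. In RefSeq's windows from 250 bases before to 50 after the start (GRCm38.p6), 66 of the 83 subunits had an entry among those searched. Windows on a certain autosome, not named here, and on mitochondrial DNA were left out of the search and of all counts of promoters here. Those on the other autosomes were kept. The letters GCGCATGC, a core of the binding site of the factor NRF1, stood on either strand in 15.2% of them, against 2.80% of all 27025 promoters and 4.68% of those of the genes tested. CCGGAAGT, the site of the ETS factor GABPA, was in 7.58%, close to the 7.03% of the genes tested and below the 9.26% of all higher genes, with 4% over all promoters. AAGATGGCG, a YY1 site, was in 9.09% against 1.49% of all promoters and 2.67% of the genes tested, and TCAAGGTCA, the site of the estrogen-related receptor ESRRA, in 3.03% (2 promoters) against 0.407% and 0.249%. Among all higher genes the NRF1 letters were in 5.92% of promoters and among all lower genes in 4.48%. Other lists that rose differed in these letters. They were in 0 of 19 promoters of the citrate cycle list and 0 of 14 of the lipogenesis list. In the mitochondrial ribosome list 8 of 69 promoters held them, and in the fatty acid oxidation list 3 of 17. Whether the letters bear on the rise was not tested. A match describes letters and not a bound site. The bases before the start are printed for 3 of the subunits with the smallest p-values that held a match, with the matched letters in capitals. Sdhb (chr4:140961021-140961270, plus strand) and Ndufa6 (chr15:82354292-82354541, minus strand), an accessory subunit of complex I, held the NRF1 letters on the opposite strand. Atp5h (chr11:115419920-115420169, minus strand), a stalk subunit of ATP synthase, held the GABPA letters, also on the opposite strand. The capitals therefore show the reverse complement of the letters named.
Sdhb: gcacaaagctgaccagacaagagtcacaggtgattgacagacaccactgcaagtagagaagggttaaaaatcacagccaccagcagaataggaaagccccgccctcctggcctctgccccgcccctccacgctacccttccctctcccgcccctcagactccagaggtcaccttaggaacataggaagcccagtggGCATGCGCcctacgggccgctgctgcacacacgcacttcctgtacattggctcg
Ndufa6: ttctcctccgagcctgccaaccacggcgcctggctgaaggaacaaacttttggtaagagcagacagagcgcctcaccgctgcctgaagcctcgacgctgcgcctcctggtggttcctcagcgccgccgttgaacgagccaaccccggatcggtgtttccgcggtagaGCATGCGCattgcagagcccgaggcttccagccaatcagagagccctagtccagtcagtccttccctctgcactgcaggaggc
Atp5h: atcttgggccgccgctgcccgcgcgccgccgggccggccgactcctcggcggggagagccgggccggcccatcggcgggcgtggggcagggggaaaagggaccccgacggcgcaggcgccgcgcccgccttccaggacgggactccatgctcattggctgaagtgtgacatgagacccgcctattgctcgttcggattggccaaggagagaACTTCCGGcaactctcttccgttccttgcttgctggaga

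**Figure D2:**
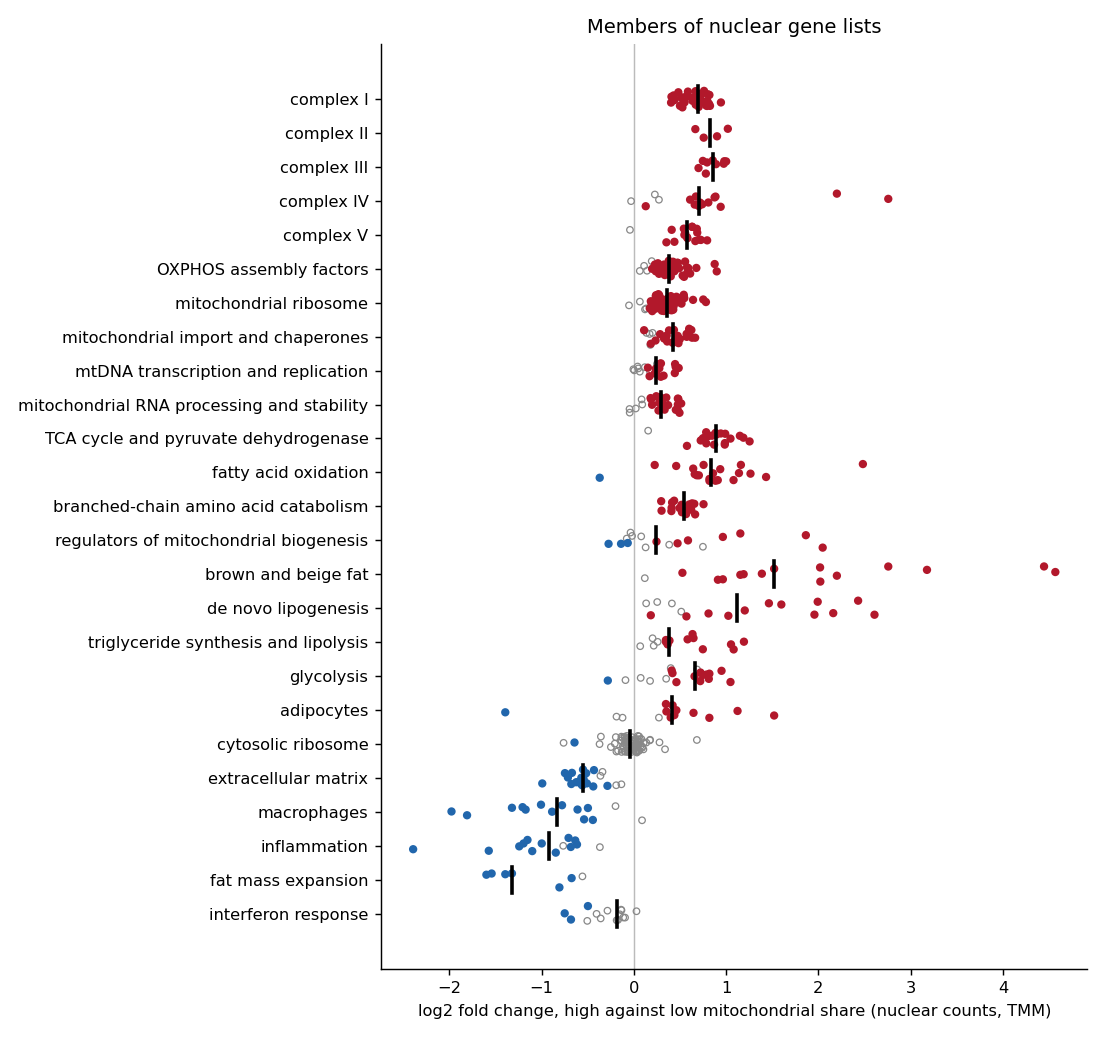
Log2 fold change of high-share against low-share libraries for each member of the gene lists (1 point a gene, filled where the adjusted p was under 0.05), red where it was higher and blue where lower), with the median of a list as a black bar and a grey line at 0. OXPHOS, citrate cycle and fatty acid oxidation members lie to the right of the line except Cox4i2 (-0.03), Atp5g1 (-0.04) and Cpt1a (-0.37), and extracellular matrix and macrophage members to its left except Cd14 (0.09).

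The pathways that feed the respiratory chain rose with it. In the list of pyruvate dehydrogenase and the citrate cycle 20 of 21 members rose (median 0.89), with Idh2 at 0.16 the exception. Pdhb, the beta subunit of pyruvate dehydrogenase E1, ranged from 72.7 to 188.3 CPM (median 144.8) in low-share and from 206 to 726 CPM (median 418) in high-share females, groups that did not overlap, with male medians of 137.5 and 249.7 CPM. Its log2 fold change was 1.15 ± 0.10 (edgeR adjusted p = 1.2e-14). The mitochondrial pyruvate carriers Mpc1 and Mpc2 rose by 1.19 and 0.99, citrate synthase Cs by 0.85 and the isocitrate dehydrogenase subunits Idh3b and Idh3g by 0.99 and 0.94.

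Fatty acid oxidation had 19 of 20 members higher and 1 lower (median 0.84). The exception separated isoforms of one enzyme, since Cpt1b, the carnitine palmitoyltransferase of muscle and brown fat, rose by 2.48 while Cpt1a, the liver form, fell by 0.37. Acadvl, which opens the oxidation of very long chains, had medians of 138.7 and 406 CPM in females and 175.01 and 324 CPM in males, and rose by 1.43 ± 0.13. The trifunctional protein subunits Hadha and Hadhb rose by 1.14 and 1.26. All 18 genes of branched-chain amino acid breakdown rose by a smaller amount (median 0.54), among them Bckdha (0.76), a subunit of the branched-chain keto acid dehydrogenase, and Bckdk (0.52), the kinase that inhibits it.

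Genes that build and maintain mitochondria also rose, with smaller medians. In the list of OXPHOS assembly factors 41 of 45 rose (median 0.38), in that of import and chaperones 24 of 28 (0.42), of mitochondrial ribosome proteins 72 of 78 (0.36), and of mitochondrial carriers 17 of 23 with 1 lower (0.37). The cytosolic ribosome had 0 of 82 higher and 1 lower, Rpl10 (-0.65), at a median of -0.04. Fusion, fission and mitophagy genes had 7 of 16 higher, with a median of 0.14 that became -0.04 on log2(TPM + 1). Opa1, which fuses inner membranes, rose by 0.37 and Mief2, a receptor of the fission machinery, by 0.65.

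The machinery that makes and keeps the mt- transcripts was higher for most of its genes. Of 22 genes for transcription and replication of mitochondrial DNA 14 rose (median 0.24; 6 higher and 2 lower on log2(TPM + 1)), and of 25 for processing and stability of its RNA 20 rose (0.29). Polrmt, the mitochondrial RNA polymerase, had female medians of 16.6 and 20 CPM and male medians of 16.6 and 18.2 CPM, a rise of 0.24. Tfam, the packaging and initiation factor of mitochondrial DNA, was higher by 0.17 but changed sign on log2(TPM + 1), to -0.08 without passing the test. Tfb2m, the second initiation factor, rose by 0.45, and Lrpprc, which stabilises mitochondrial mRNAs with Slirp, by 0.46 against 0.27 for Slirp. Polg, the DNA polymerase, was at 0.04 and did not pass.

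Regulators of mitochondrial biogenesis were mixed, with 7 of 17 higher and 3 lower (median 0.25), beside 17% and 16.6% of all genes. The coactivator Ppargc1a ranged from 3.25 to 11.5 CPM (median 7.29) in low-share and from 11.5 to 37.6 CPM (median 16.7) in high-share females, and from 6 to 15.1 CPM (median 7.9) and from 11.8 to 31.3 CPM (median 15.4) in males. The groups overlapped in both sexes, at a log2 fold change of 1.15 ± 0.11 (edgeR adjusted p = 2.7e-13). Ppargc1b rose by 0.96, its partner receptor Esrra by 0.47, the lipid-sensing receptor Ppara by 1.86, the muscle-type coregulator Perm1 by 2.05 and the deacetylase Sirt3 by 0.59. The third family member Pprc1 fell by 0.27 and Yy1 by 0.07. Nrf1 and Gabpa, whose letters were searched in the promoters, were at -0.08 and 0.08 and did not pass. The stress response through ATF4 had 3 of 16 members higher and 4 lower, beside 17% and 16.6% of all genes.

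Genes of brown and beige fat had the largest list median. Of 15 listed 14 rose, at a median of 1.52, and Prdm16, a determinant of brown identity, was at 0.12. Ucp1 ran from 0 to 106.5 CPM (median 0.9) in low-share and from 3.05 to 3031 CPM (median 183.6) in high-share females. In males it ran from 0.272 to 148.1 CPM (median 5) and from 3.13 to 1786 CPM (median 36.8). The groups overlapped widely in both sexes although Ucp1 differed by 4.57 ± 0.73 (edgeR adjusted p = 7.8e-07). Above 100 CPM lay 10 of 16 high-share females and 6 of 18 high-share males, against 1 low-share library in each sex. Under 10 CPM lay 1 high-share female and 5 high-share males. That female was BXD79/RwwJ, the library with the skeletal muscle sum of 31101 CPM.

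Other thermogenic genes followed. Cidea, a lipid droplet protein of brown fat, rose by 3.18 ± 0.30, Elovl3, a fatty acid elongase induced by cold, by 4.45 ± 0.60, and Fabp3, the heart-type fatty acid binding protein, by 4.74 ± 0.70. Dio2, which makes active thyroid hormone, rose by 2.02, and Adrb3, the adrenergic receptor of adipocytes, by 1.52. The coefficient of the share group was also estimated with the log2 CPM of Ucp1 in the same model, an alternative chosen after seeing the data. With that term 11.7% of all genes tested were higher and 8.58% lower. In that model 74 of 83 OXPHOS subunits were higher (median 0.52), Sdhb at 0.77 and Ppargc1a at 1.09, while 8 of 15 brown and beige fat genes passed. Ucp1 is itself among the 15, and its own result was fixed by that term.

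The strain CXB11/HiAJ shows a high share at a low Ucp1 level. Its male had a share of 25.1% with 7.9 CPM of Ucp1, and its female 15.3% with 18 CPM. Ppargc1a was 31.3 CPM in that male and 28.8 CPM in that female, and Lep, the gene of the hormone leptin, 3284 and 2851 CPM. Without both libraries 14 of 15 brown and beige fat genes were higher, beside 15% of all genes.

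**Figure D3:**
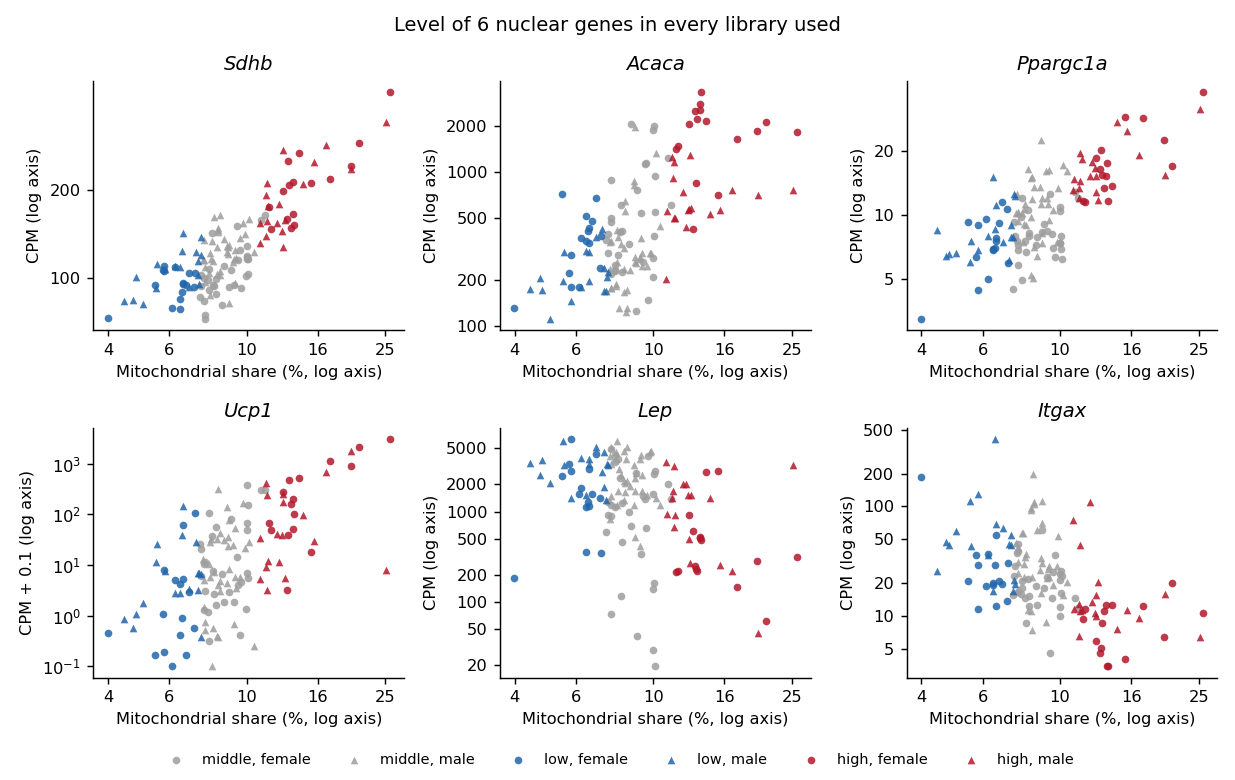
Level of 6 nuclear genes in each ranked library (CPM, log axis, with 0.1 added for Ucp1) against the library's share of mt- counts (percent, log axis), with the low-share, middle and high-share libraries in blue, grey and red, females as circles and males as triangles. Sdhb goes from a median of 95.5 to 210.2 CPM in females, while Ucp1 spreads widely among libraries of like share and the CXB11/HiAJ male lies at 25.1% with 7.9 CPM.

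Genes that make fatty acids from carbohydrate rose strongly. Of 16 lipogenesis genes 12 rose (median 1.11). Acaca, the acetyl-CoA carboxylase of the cytosol, ranged from 130.98 to 722 CPM (median 366) in low-share and from 427 to 3281 CPM (median 1949) in high-share females. In males it ranged from 111.1 to 426 CPM (median 201) and from 204 to 1291 CPM (median 579.8). Its log2 fold change of 1.96 ± 0.16 (edgeR adjusted p = 6.8e-15) was among the best supported of all genes, with some overlap between groups in each sex. Fatty acid synthase Fasn rose by 1.99 ± 0.19, the elongase Elovl6 by 2.61 ± 0.24, the citrate-cleaving enzyme Acly by 2.16 and the lipogenic regulator Thrsp by 2.43. The desaturases Scd1 (0.51), Fads1 (0.25) and Fads2 (0.13) did not pass.

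Sugar handling moved the same way. Slc2a5, a fructose transporter, ranged from 0.0632 to 3.07 CPM (median 1.13) in low-share and from 3.09 to 76.1 CPM (median 36.6) in high-share females, without overlap, and had male medians of 0.169 and 2.78 CPM, for a log2 fold change of 4.44 ± 0.41. Slc2a4, the insulin-responsive glucose transporter, rose by 0.82, while Slc2a1, the ubiquitous one, fell by 0.28. Among the 19 entries tested for glycolysis and glucose transport 12 rose and 1 fell (median 0.66), with Pkm at 0.79, Pgam1 at 0.75 and Gapdh, a gene with many processed copies, at 1.05. For triglyceride synthesis and lipolysis 11 of 15 rose (median 0.39), among them the acyltransferase Agpat2 (1.19), the glyceroneogenic enzyme Pck1 (1.08) and the lipase Pnpla2 (0.65).

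Genes known to rise with fat mass were lower. Of 7 listed 6 fell (median -1.32). The list is not separate from the others, since Lep is also an adipocyte marker and a macrophage marker is also in it. Within females 5 of the 7 were lower and within males 2, beside 9.74% and 5.58% of all genes. In the test of the middle libraries given below 0 of the 7 passed. Lep ranged from 183.3 to 6293 CPM (median 1566) in low-share and from 61 to 2851 CPM (median 298) in high-share females, and from 1359.8 to 6021 CPM (median 3316) and from 45.2 to 3588 CPM (median 1413) in males. The groups overlapped, at a log2 fold change of -1.39 ± 0.30 (edgeR adjusted p = 1.7e-04). Mest, an imprinted gene of expanding adipocytes, fell by 1.60 on the log2 scale, and the secreted Wnt-binding protein Sfrp5 by 1.54. Among general adipocyte markers 10 of 14 rose and 1 fell, Lep itself, with a median of 0.41. Adipoq, the gene of adiponectin, had medians of 1667 and 1994 CPM in females and 1791 and 2596 CPM in males (0.27, not passing), and Plin1, which coats the lipid droplet, rose by 0.40. A covariate of adipocyte genes was the mean log2 CPM of Adipoq, Plin1, Plin4, Cidec and Fabp4, and not of all 14 markers. With it 80 of 83 OXPHOS subunits were higher, beside 16.8% of all genes.

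Macrophage markers were lower, with 12 of 14 falling (median -0.83) and only Cd14 (0.09) and Fcgr1 (-0.20) not passing. The 14 genes summed to between 636 and 4546 CPM in low-share females (median 1049) and between 391 and 880.0 CPM in high-share females (median 555). Male medians were 1419 and 750.2 CPM. None of the 14 was at 0 in a whole group. Within the list the largest falls were those of Gpnmb by 1.98, Itgax by 1.81 and Trem2 by 1.32. Each of these genes had its highest level of the contrast in the low-share KK/HlJ male. Gpnmb was at 1399 CPM there with the next library at 414, Itgax at 410 with the next at 187, and Trem2 at 64.1 with the next at 34.7. The macrophage sum of that male was 4387 CPM, and a fit without that male was not run. Itgax, the integrin CD11c, had medians of 20.7 and 8.93 CPM in females and 44.9 and 11.5 CPM in males, with overlap in both (edgeR adjusted p = 6.5e-07). In bulk tissue fewer cells of a type and less RNA per cell cannot be told apart. Without the AXB12/PgnJ female the count was again 12 of 14, beside 15.1% of all genes lower.

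Inflammatory genes had 12 of 14 lower (median -0.92), with Saa3, an acute-phase protein made in fat, down by 2.39, the interleukin 1 antagonist Il1rn by 1.57 and the chemokine Ccl2 by 1.15. With a strain block in limma-voom, at the estimated correlation of 0.387, 6 of 14 were lower, beside 15.2% of all genes, and 7 without the block. The count rested in part on the AXB12/PgnJ female. Without it 5 of 14 were lower (median -0.46) and the log2 fold change of Saa3 was -1.52. Interferon-induced genes had 3 of 15 lower, Mx1, Oas1a and Zbp1, and 0 of 15 without that library, beside 16.6% and 15.1% of all genes. The markers of B and T lymphocytes had 0 of 14 called by edgeR or DESeq2 and 0 at an unadjusted p under 0.05, at a median of -0.64, and their summed level ran from 9.45 CPM to 2283 CPM across low-share libraries and from 14.1 CPM to 1954 CPM across high-share libraries.

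Extracellular matrix genes had 19 of 23 lower and none higher (median -0.55). The summed level of the list had medians of 20168 CPM in low-share and 12819 CPM in high-share females and of 22628 and 17701 CPM in males, with wide overlap. Col12a1 and Col5a2, collagens that associate with or regulate larger fibrils, fell by 0.99 and 0.71, and the fibrillar collagens Col1a1 and Col3a1 by 0.52 and 0.57. With Ucp1 in the model 6 of the 23 were lower, beside 8.58% of all genes. Adipose progenitor markers had 3 of 12 lower (median -0.24), endothelial markers 1 of 10 (median 0.00204) and mural markers 2 of 8 with Cnn1 higher. Of all genes in the main test 16.6% were lower and 17% higher, so these counts lie near the share of all genes. Mast cell markers had 2 of 6 lower (median -0.52), Tpsb2 (-0.71) and Ms4a2 (-0.81), a tryptase and a chain of the receptor for immunoglobulin E. Within females 5 of the 6 were lower (median -1.16), beside 9.74% of all genes, and within males 0 of 6 (median -0.10), beside 5.58%. In the test of the difference between the sexes 0 of the 6 passed. The mast cell sum had medians of 174.9 and 124.01 CPM in low-share and high-share females and of 69.6 and 58.1 CPM in males. Their part in the other differences was not tested.

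Markers of tissues that can be sampled with the inguinal pad were read beside these lists. Mammary epithelial genes had 6 of 9 higher over both sexes, but 0 passed within females, where the gland is largest. Their sum had medians of 425 and 517 CPM in low-share and high-share females and of 2.39 and 3.52 CPM in males, with one high-share male, PL/J, at 351.9 CPM. Skeletal muscle genes had 0 of 12 called by edgeR when the sexes were joined, also at an unadjusted p under 0.05, while DESeq2 called 7 lower. Within females 8 of 11 were higher, where the BXD79/RwwJ female carries them, and within males 10 of 10 were lower, where the BXA7/PgnJ and BXH8/TyJ males do. Without these 3 libraries 0 of 11 were higher and 1 lower within females and 2 of 10 were lower within males, beside 9.28% and 5.36% of all genes lower, and 4 of 12 were lower with the sexes joined. Without these 3 libraries 78 of 83 OXPHOS subunits were higher (median 0.72), and with the muscle, lymphocyte and mammary genes as covariates 79 of 83 were (median 0.70), beside 16.8% and 16.4% of all genes.

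The lower genes with the smallest p-values belonged to none of the lists and changed modestly. Bicdl1, an adaptor of dynein transport, had medians of 12.6 and 6.67 CPM in females and 16.1 and 9.76 CPM in males and fell by 0.71 (edgeR adjusted p = 2.4e-11). Vhl, which targets hypoxia-inducible factors for destruction, fell by 0.60, the histone chaperone partner Daxx by 0.49, the interleukin 4 signal transducer Stat6 by 0.36, the kinase Pak2 by 0.26 and the adhesion scaffold Nedd9 by 0.85. Hypoxia-induced genes had 5 of 12 higher and 3 lower, beside 17% and 16.6% of all genes. Among them the prolyl hydroxylase Egln3 was up by 1.30 and the carbonic anhydrase Car9 down by 0.60. The largest falls of protein-coding genes averaging 5 CPM or more were those of Itgad (-3.20), an integrin of macrophages, and Tph2 (-2.92), a tryptophan hydroxylase. Among the largest rises Mup12 (4.82), a major urinary protein of a family of near-identical genes, came from one library, the AXB5/PgnJ male at 728 CPM with the next at 5.59 CPM, and without the 2 libraries with liver genes it did not pass (1.35, edgeR adjusted p = 0.157).

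Nuclear copies of mitochondrial DNA share sequence with the mt- genes that formed the groups. By alignment 16 annotated nuclear genes matched an mt- gene over at least 50% of their length at 90% identity or more, 10 were tested and 4 were called, all higher (Gm29216, Gm28438, Gm13341 and Gm11407). Gm29216, a copy of mt-Co1 at chr1:24615706-24616197 (GRCm38) with 99.8% identity, had a mean of 5673 CPM and a log2 fold change of 1.43. Reads from a copy and from its mitochondrial source cannot be told apart at such identity, so these genes are uncertain. With the copies left out 2920 genes were higher and 3023 lower.

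Within each sex the contrast pointed the same way for mitochondrial genes. In females 1932 genes (11.7%) were higher and 1611 (9.74%) lower, and in males 1277 (7.95%) and 897 (5.58%). OXPHOS subunits were higher for 78 of 82 tested in females (median 0.88) and 73 of 83 in males with 1 lower, the muscle form Cox6a2 at -2.10 (median 0.52). Without the 3 libraries with muscle genes Cox6a2 did not pass the filter on low counts in males, and 77 of 82 subunits were higher in females and 74 of 82 in males, beside 10.7% and 8.31% of all genes. Brown and beige fat genes were higher for 14 and 13 of 15, and lipogenesis genes for 11 and 10 of 16. More members of the lower lists passed in females than in males, with matrix genes 13 of 23 in females and 2 in males, macrophage genes 12 of 14 and 3, and inflammatory genes 9 of 12 tested and 1 of 14. That comparison of counts is no test of a difference between the sexes. In the test of the difference itself 60 genes (0.343%) were more positive in females and 16 (0.0913%) in males, and 10 of the 12 muscle genes were among the 76.

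Without the 3 libraries with muscle genes, a choice made after seeing the data, 8 genes differed between the sexes, 2 more positive in females (0.0114%) and 6 in males (0.0342%), so the balance of 60 to 16 did not hold. The 6 were Gm13340, Gm13339, Gm13456, Gm10031, Ftl1-ps1 and the lectin receptor Clec4e. Mpc1, the pyruvate carrier subunit, was more positive in females by 0.88 (edgeR adjusted p = 0.040). Gm13340 and Gm13339 are nuclear copies of mitochondrial DNA. No member of the matrix, macrophage or inflammation lists passed that test.

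**Figure D4:**
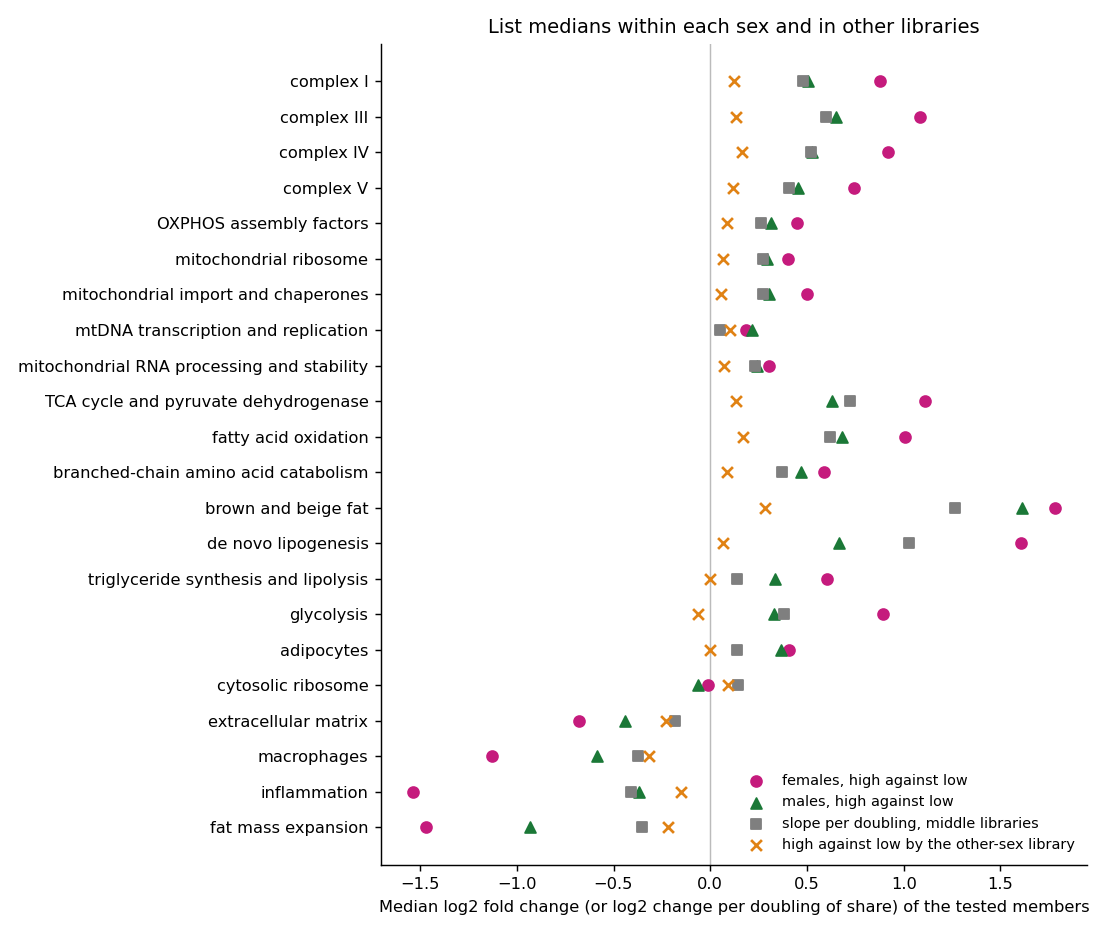
Median log2 fold change of each gene list in females (circles), in males (triangles), per doubling of the share within the middle libraries (squares) and by the share group of the other-sex library (crosses), with a line at 0. The complexes appear apart in the plot, and over all OXPHOS subunits the medians are 0.88 in females, 0.52 in males, 0.50 for the middle slope and 0.12 for the other-sex library.

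The 70 middle libraries were not used to form the contrast, and in them the level of each gene was regressed on log2 of the share with a term for sex, so that a slope is the log2 change per doubling of the share. Of 16761 genes tested 37 (0.221%) rose with the share and 26 (0.155%) fell, with 1139 at an unadjusted p under 0.05. Each of the 37 was also higher in the contrast of high-share with low-share libraries. Gm13341, among the 37, is a nuclear copy that shares sequence with mt-Co2, so it is no independent support. They included 10 of 83 OXPHOS subunits and 9 of 21 citrate cycle genes, with Sdhb at 0.86, Uqcrc2 at 0.82, Sdha at 0.83 and Idh3b at 0.83. The list medians were 0.50 for OXPHOS, 0.72 for the citrate cycle and 0.27 for the mitochondrial ribosome, where 0 of 78 passed and 31 had an unadjusted p under 0.05, beside -0.02 for all genes. None of the 26 that fell was called in the contrast of high-share with low-share libraries, and they were largely liver genes such as Plg, Ttr, Fga and Apoh. Without the 2 middle libraries with liver genes 21 rose and 0 fell. No macrophage, inflammation or matrix gene passed in the middle libraries (medians -0.37, -0.41 and -0.18, with 0, 2 and 0 members at an unadjusted p under 0.05).

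The library of the other sex of the same strain gave a further view that the placing of a library did not use. High-share libraries had a partner in the high-share group in 12 cases, in the middle in 16, in the low-share group in 4, and none in 2. Low-share libraries had a low-share partner in 10 cases, a middle one in 11, a high-share one in 4, and none in 9. Females whose male partner was high-share had a share of 11% ± 4.53 (SD, n = 17) against 9.18% ± 4.53 (SD, n = 12) where the partner was low-share (difference 1.85 percentage points, two-sided permutation test with 100000 resamples, p = 0.303, adjusted over both sexes 0.303). Males whose female partner was high-share had 10.6% ± 4.65 (SD, n = 15) against 7.95% ± 1.82 (SD, n = 13), a difference of 2.61 percentage points (permutation p = 0.0378, adjusted 0.0756). The values overlapped widely in both, and neither passed after adjustment. With groups of 1 in 3 in place of 1 in 4 the male difference was 2.33 percentage points and passed (permutation test, adjusted p = 0.0402), and the female one did not (adjusted p = 0.271).

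**Figure D5:**
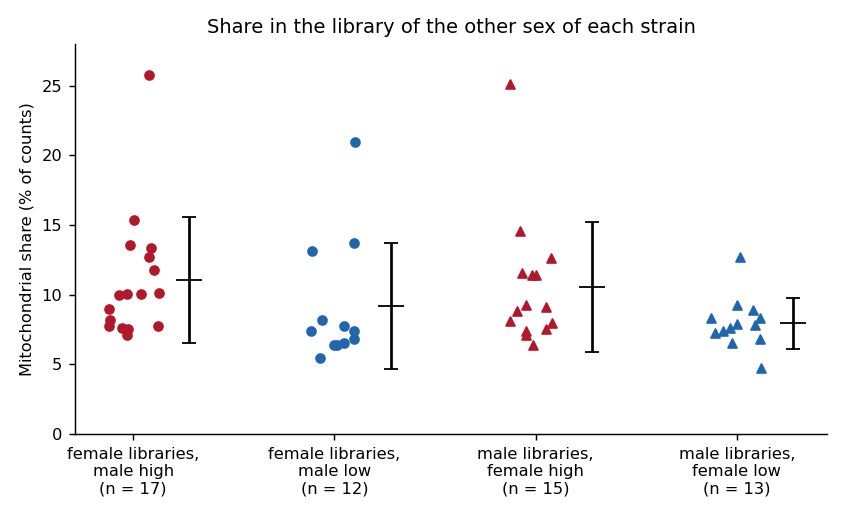
Share of mt- counts (percent) of a library by the share group of the other-sex library of its strain, females to the left and males to the right, 1 point a library, with a bar for the mean and whiskers for the SD. The means are 11% and 9.18% in females and 10.6% and 7.95% in males, and the points of the high-share and low-share partners overlap in each.

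Few genes passed when libraries were grouped by the share of their partner. In that grouping, 2 genes (0.0114%) were higher and 0 (0.0%) lower among 17615 tested by edgeR's quasi-likelihood test, with 1688 at an unadjusted p under 0.05. The 2 genes were Rarres1, a gene induced by retinoic acid, at 2.42, and AC117239.2 at 4.86. No OXPHOS subunit passed (2 of 83 had an unadjusted p under 0.05), and the median of the list was 0.12 beside 0.01 for all genes, with Sdhb at 0.20 and Ppargc1a at 0.45. The macrophage list had a median of -0.32 and the matrix list -0.23, with 0 members called and 5 and 8 at an unadjusted p under 0.05.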

How the data were processed

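mRNA captured from inguinal fat was sequenced as 100 base stranded paired reads. Per the labels, the methods and the submitters' processing notes, the authors estimated transcript abundance with kallisto 0.46.1 on the Ensembl 97 (GRCm38) transcripts and summed it to genes. The deposited tables hold estimated counts, which need not be whole, and TPM per gene. Estimated counts were rounded. The share used all listed mt- genes, of which ribosomal and transfer RNAs are not among those analysed here. Totals and TMM factors came from nuclear genes, and genes were kept by filterByExpr.

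The main test was edgeR 4.0.16 (R 4.3.3), quasi-likelihood with a sex term and Benjamini-Hochberg adjustment at 0.05. Alternatives were DESeq2 1.42.0, limma 3.58.1 (voom, a strain block with correlation 0.387, and log2(TPM + pseudocount) with nuclear-only TPM), other filters, scalings, covariates and groupings. Nuclear copies were found with blastn 2.17.0. On simulated counts with known changes in 200 of 17516 genes drawn for this contrast, 79 of 100 genes changed by 0.5 and 99 of 100 changed by 1 on the log2 scale were called, with 7 unchanged genes called. The simulated libraries shared no strain and held far fewer changed genes than were called here, so their false calls need not carry over. Group members and gene lists were chosen with earlier results of these data known. Named genes were, in each direction, the 10 smallest p-values and 10 largest changes among called protein-coding nuclear genes of at least 5 CPM, the 2 called members of each list with the smallest p, and fixed genes such as Tfam and Ucp1. Some genes are not reported here, Malat1 and Neat1 were not analysed here, and other members were named after their values were seen. The main test took each mouse as independent although 15 strains entered the contrast with both sexes, and no batch was given beyond mouse numbers, whose bands were a covariate in one alternative. Library totals of 11747373 to 78562648 set the counting precision.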

Additional observations from a re-analysis of the deposited data

Results flagged for a closer look

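The difference between the sexes in the contrast was tested gene by gene, and 76 nuclear genes passed, 60 of them more positive in females. The named genes among them were Pdhb, with a female minus male log2 difference of 0.70, and the muscle genes Ckm, at 10.48, and Myh4, at 12.09. The muscle values rest on the BXD79/RwwJ female, which is high-share, and the BXA7/PgnJ and BXH8/TyJ males, which are low-share. Without these 3 libraries 8 genes passed, and Pdhb, Ckm and Myh4 were not among them. The groups held 16 or 18 libraries, too many for the test of a single library standing apart from its group.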

How the results depend on the processing

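Alternatives are counted against 5877 genes called, 2978 higher and 2899 lower. Called genes numbered 3876 for groups of 1 in 8, 3543 in females alone, 2174 in males alone and 3551 with Ucp1 as a covariate. Higher genes numbered 1321 on log2(TPM + 1), 1329 on log2(TPM + 0.1), 1932 in females and 1277 in males. Lower genes numbered 6054 and 6068 on the TPM scales, 1780 for groups of 1 in 8, 1611 in females, 897 in males and 1503 with Ucp1. Median shifts of all genes on the TPM scales were -0.13 and -0.17. Brown and beige fat genes higher numbered 8 with Ucp1, matrix genes lower 2 in males and 6 with Ucp1, and macrophage genes lower 3 in males. Inflammatory genes lower numbered 6 with at least 10 counts in every library, 7 by voom, 6 with a strain block, 5 with adipocyte genes, 4 with muscle, lymphocyte and mammary genes, 4 for groups of 1 in 8, 1 in males, 5 without the AXB12/PgnJ female and 4 with Ucp1. Genes differing between sexes numbered 8 without the libraries with muscle genes. Genes with a slope in the middle libraries numbered 63, with 156 under an adipocyte covariate and 21 without liver genes. The male partner difference became 2.33 with groups of 1 in 3 (permutation, adjusted p = 0.0402). Signs turned for Ucp1 (-0.0087), Acot11 (-0.053) and Gabpa (-0.021) with Ucp1 as a covariate, the log2 fold change of Krt18 with the muscle, lymphocyte and mammary covariates (-0.0854), Tfam (-0.080 and -0.081) and Gabpa (-0.11 and -0.11) on the TPM scales, and Nrf1 with adipocyte genes (0.0014) and with the 3 libraries kept in (0.066). The turns of Ucp1 and Krt18 carry no information, since Ucp1 was its own covariate and Krt18 is among the genes of the mammary covariate. The log2 fold change of Pde6a, at -2.11, became 0.27 by DESeq2, 0.26 by voom, 0.17 with a strain block, 0.30 with depth, 1.72 without the 2 libraries with the fewest counts and 1.92 with Ucp1. The highest level of Pde6a, 276 CPM, was in the low-share BXA24/PgnJ male, 1 of the 2 libraries with the fewest counts, with the next at 171 CPM. Its median nuclear TPM was 0.72 and 0.68 in high-share and low-share females and 0.78 and 0.63 in males. The cause was not tested. Of the other values of named genes, 3675 kept direction and call, 227 lost the call and 5 gained it. The share from protein-coding mt- genes alone equals the share used, since 13 such genes are listed. Muscle genes higher in females and lower in males numbered 0 and 2 without the 3 libraries that carry them. With a strain block 5488 genes were called.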

Other observations

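By transcript length, the shortest of 5 classes of tested genes (3462 genes, median length 633 bases) had 749 higher and 460 lower at a median log2 fold change of 0.0029, and the longest class (3451 genes, median 3778 bases) had 330 higher and 731 lower at -0.08.

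The libraries left out had shares of 29.9% (BXD34/TyJ female, mouse number 443), 4.92% (BXD69/RwwJ female, 886) and 12.4% (NZW/LacJ male, 1269). With them kept in, 3426 genes were higher and 2400 lower. Replication-dependent histone genes had 5 of 33 higher, immediate early genes 0 of 10 higher and 4 lower, and erythrocyte genes 0 of 5 called. In the main test, which gave these counts, 17% of all genes were higher and 16.6% lower.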
